A study of Mus musculus with 90 samples.

Results

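The genes described are 10 targets of the transcription factor p53: Mdm2, Ccng1, Fas, Bax, Bbc3, Aen, Phlda3, Trp53inp1, Zmat3 and Sesn2. They were chosen by name as well-known p53 targets, and the table holds a row for each of the 10 among its 35869 genes. p53 is kept at a low level by the ubiquitin ligase MDM2. Stress such as DNA damage frees p53 from MDM2, and p53 then switches on genes that stop the cell cycle, start cell death or adjust growth, and also Mdm2 itself, which closes a feedback loop. In blood stem cells p53 is known for its part in quiescence and in the death of damaged cells.

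Single cells from mouse bone marrow cultures were compared between RUNX1 knockout (KO) and control (WT) mice, and between cells that looked like megakaryocytes (MK), the large cells that shed platelets, and cells that did not (NMK). The KO mice had the genotype MxCre1+/-,RUNX1f/f and the WT mice MxCre1-/-,RUNX1f/f, so floxed Runx1 alleles were present in both and the Cre transgene, driven by the interferon-inducible Mx1 promoter, in KO mice alone. All mice had 4 injections of polyIC, and stem cells positive for CD41 were taken 4 weeks later and cultured for 2 days before MK and NMK cells were selected and made into SMART-Seq libraries, 1 per cell. The table used holds 33 libraries, with 5 KO MK, 6 WT MK, 13 KO NMK and 9 WT NMK cells. No label gives an age or sex, or says which animal or culture a cell came from, so each group counts as 1 sample: no test was run, no p-value is given, and every SD is a spread between cells. KO and WT below mean libraries with those labels.

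Values are TPM, a transcript abundance scaled by gene length whose sum is the same in each library, so the depth cannot be known from it. Genes above 0 numbered 11896 to 14487 in KO MK, 14089 to 15252 in WT MK, 3011 to 10987 in KO NMK and 5475 to 11715 in WT NMK libraries. Runx1 itself averaged 22.5 TPM in KO MK, 12.4 TPM in WT MK, 12.1 TPM in KO NMK and 5.08 TPM in WT NMK cells, values that count the whole gene and cannot show whether the floxed part was lost. KO NMK B1-1b, with 91.6% of its TPM on mitochondrial genes, and KO NMK B1-2a, with 3011 genes above 0, had a mean log2(TPM + 1) over 14 housekeeping genes of 4.68 and 2.09, against 9.16 or higher in each WT NMK library. They stay in the KO NMK values unless their absence is stated, and the other 31 libraries are called sound. The mean log2(TPM + 1) of 12 MK markers was 1.25 in KO MK B1-4 and 2.55 in KO MK 2, against 7.86 or higher in the other 3 KO MK cells and 5.28 or higher in the WT MK cells, so these 2 libraries stand apart from their label. Stem cell markers at a mean of 1 TPM or more numbered 10 of 12 in KO MK, 5 of 12 in WT MK, 9 of 12 in KO NMK and 10 of 12 in WT NMK cells. The mean log2(TPM + 1) of these 12 markers was 4.55 in KO MK B1-4 and 3.70 in KO MK 2. It was 1.77 to 2.11 in the other 3 KO MK cells and 1.29 to 1.78 in WT MK cells. The 5 unprefixed WT MK libraries, those whose titles lack the prefix B1, correlated with each other at r = 0.972 to 0.981, above every other pair of libraries, the highest of which had r = 0.956, so they may not be separate cells. Sex moved with genotype: Xist was listed at 0 in all KO MK cells and had a median of 0 TPM in KO NMK cells, while its range was 6.6 to 50.4 TPM in WT MK cells and its median 27.2 TPM in WT NMK cells. Y-linked Ddx3y reached 20.9 TPM in KO MK and 87.8 TPM in KO NMK cells, against at most 0.1 TPM in any WT cell. The exceptions were KO NMK B1-2a, with 8.2 TPM of Xist, and WT NMK 1A, with Xist at 0, and the Y-linked genes Ddx3y and Eif2s3y were both at 0 in KO NMK B1-1b, B1-2a and 4A. With these exceptions sex followed the labels of genotype, so genotype and sex cannot be told apart in any difference between KO and WT.

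p53 binds DNA as a tetramer at pairs of a short half-site, and the sequences around the start of 4 of the genes are shown because each holds an exact match to the p53 half-site consensus. The consensus reads the same on both strands, and the windows ran from 250 bases before to 50 bases after each gene start in RefSeq (GRCm38.p6). Of the 10 genes, 8 had a window, and Trp53inp1 and Zmat3 had none in the table used. A match was found for 4 of these 8 (50%), against 2582 of 27025 genes with a window (9.55%). Capitals mark the half-site in each line, and all are written 5′ to 3′ on the strand of the gene.
Bax, chr7:45467060-45467129, minus strand, half-site beginning at position -201 from the gene start: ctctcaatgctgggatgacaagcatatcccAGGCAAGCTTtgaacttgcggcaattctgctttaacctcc
Mdm2, chr10:117710905-117710974, minus strand, half-site at position -186: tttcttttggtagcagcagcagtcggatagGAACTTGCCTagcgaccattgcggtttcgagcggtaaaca
Ccng1, chr11:40755432-40755501, minus strand, half-site at position -185: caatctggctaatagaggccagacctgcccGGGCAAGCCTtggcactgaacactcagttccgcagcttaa
Aen, chr7:78895932-78895961, plus strand, half-site at position 11 inside the transcript: aagccGGGCTTGTCCgggcaaggagcttcc
These matches describe letters in a window. They do not show binding in these cells, and a gene without a match in this window may have sites elsewhere.

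Mdm2 (ENSMUSG00000020184, chromosome 10 from 117688875 to 117710758, minus strand, GRCm38), the ubiquitin ligase that ends p53 activity, was detected in every MK cell and in most NMK cells. KO MK cells had 8.2, 54.0, 60.3, 16.3 and 22.1 TPM. WT MK cells ranged between 8.0 and 226.4 TPM with a median of 16.5, KO NMK cells between 0 and 34.8 TPM with a median of 3.2, and WT NMK cells between 0 and 111.6 TPM with a median of 10.7. All 4 groups overlapped, and 1 cell each in WT MK and WT NMK stood far above the rest of its group. Ccng1 (ENSMUSG00000020326, chromosome 11 from 40748552 to 40755311, minus strand), which encodes cyclin G1, a partner of protein phosphatase 2A that acts back on MDM2, had the highest single value of the 10 genes. Its values in KO MK cells were 104.9, 374.4, 1010.5, 278.9 and 104.4 TPM. They ran from 40.5 to 605.0 TPM in WT MK (median 136.1), from 0 to 332.1 TPM in KO NMK (median 33.0) and from 10.8 to 296.7 TPM in WT NMK cells (median 77.5). Ccng1 was listed at 0 in 4 of 13 KO NMK cells and in no cell of the other groups.

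Fas (ENSMUSG00000024778, chromosome 19 from 34290666 to 34327772, plus strand) encodes the death receptor that starts apoptosis from the cell surface. It had 9.0, 18.0, 0.7, 14.6 and 20.4 TPM in KO MK cells. WT MK cells had 1.8 to 53.8 TPM (median 5.2), all 13 KO NMK cells were listed at 0, and WT NMK cells had 0 to 110.3 TPM (median 21.8). KO NMK is thus the group that stands apart: each KO MK and WT MK cell lay above all KO NMK cells, while 4 of 9 WT NMK cells were also listed at 0. In the larger table that still holds the libraries the authors set aside, Fas was listed at 0 in 16 of 16 KO NMK libraries. It was also at 0 there in WT MK B1-2, B1-1a, B1-1b and B1-2a and in KO MK B1-1b and B1-1a. In that table MK and KO NMK libraries thus overlapped. These MK libraries, and the set-aside KO NMK B1-3a and 5A, had a housekeeping level under 6, so their zeros add little. A Fas reading of 1 TPM or more was present in 4 of 5 KO MK cells (80.0%, exact Clopper-Pearson 95% interval 28.4 to 99.5%), 6 of 6 WT MK cells (54.1 to 100%), 0 of 13 KO NMK cells (0 to 24.7%) and 5 of 9 WT NMK cells (55.6%, 21.2 to 86.3%), and these intervals cover counting error only. They take each library as an independent cell, which may not hold for the 5 alike WT MK libraries. The 13 KO NMK cells include B1-1b and B1-2a, which are not sound.

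Bax (ENSMUSG00000003873, chromosome 7 from 45461697 to 45466898, minus strand), which perforates the outer mitochondrial membrane in apoptosis, varied least between cells of the 10 genes over the sound libraries. It had 69.1, 202.9, 162.0, 188.9 and 110.7 TPM in KO MK cells. The range was 118.9 to 320.2 TPM in WT MK (median 190.3), 1.6 to 281.7 TPM in KO NMK (median 145.8) and 48.8 to 239.4 TPM in WT NMK cells (median 131.0). The lowest Bax value of all, 1.6 TPM, came from KO NMK B1-1b, and the sound libraries lay between 48.8 and 320.2 TPM with wide overlap of all groups. Bbc3 (ENSMUSG00000002083, chromosome 7 from 16308393 to 16318205, plus strand) encodes PUMA, a BH3-only protein that neutralises BCL-2 and its relatives, and was low throughout. KO MK cells had 1.2, 1.5, 17.7, 3.2 and 0.6 TPM, and medians were 1.05 TPM in WT MK, 2.9 TPM in KO NMK and 1.7 TPM in WT NMK cells. Aen (ENSMUSG00000030609, chromosome 7 from 78895854 to 78911209, plus strand), an exonuclease that promotes apoptosis, was detected in nearly every cell. Its values were 16.3, 27.1, 50.1, 21.2 and 5.3 TPM in KO MK cells, with medians of 13.8 TPM in WT MK, 16.3 TPM in KO NMK and 10.6 TPM in WT NMK cells. Neither Bbc3 nor Aen separated any of the groups.

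Phlda3 (ENSMUSG00000041801, chromosome 1 from 135766119 to 135769136, plus strand), which holds back AKT signalling at the membrane, varied widely between cells. KO MK cells had 3.2, 82.0, 305.2, 96.8 and 0 TPM. WT MK cells had 1.1 to 267.2 TPM (median 20.3), KO NMK cells 0 to 157.8 TPM (median 22.7) and WT NMK cells 0 to 225.9 TPM with a median of 0. In WT NMK the 4 cells with 1 TPM or more had at least 32.3 TPM, and the other 5 were listed at 0. Trp53inp1 (ENSMUSG00000028211, chromosome 4 from 11156431 to 11174379, plus strand), a nuclear stress protein that works with p53 and in autophagy, had 3.7, 9.5, 60.3, 31.9 and 8.3 TPM in KO MK cells. Medians were 0.9 TPM in WT MK, 0.3 TPM in KO NMK and 0.6 TPM in WT NMK cells, with highest values of 125.5, 29.9 and 37.1 TPM. Every KO MK cell thus exceeded the medians of the other 3 groups, although single cells of each reached higher than most KO MK cells.

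Zmat3 (ENSMUSG00000027663, chromosome 3 from 32334792 to 32366014, minus strand), an RNA-binding zinc finger protein that acts on splicing, was low in all groups. It had 2.0, 5.2, 3.9, 2.2 and 2.1 TPM in KO MK cells, and ranged up to 23.5 TPM in WT MK (median 2.3), 15.5 TPM in KO NMK (median 0) and 38.9 TPM in WT NMK cells (median 0.5). Sesn2 (ENSMUSG00000028893, chromosome 4 from 132492032 to 132510501, minus strand), a sestrin that restrains the growth kinase complex mTORC1 under stress, had 6.7, 21.1, 18.8, 0.6 and 1.4 TPM in KO MK cells. Medians were 4.05 TPM in WT MK, 0.1 TPM in KO NMK and 0 TPM in WT NMK cells. The highest Sesn2 reading, 92.8 TPM, was that of KO NMK B1-2a, and the highest in a sound KO NMK library was 11.5 TPM. Bax, Sesn2 and Fas overlap other annotated genes on the same strand (Gm45808, Gm12981 and Gm27818), so how the authors' counting treated shared reads could have changed their values.

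**Figure D1:**
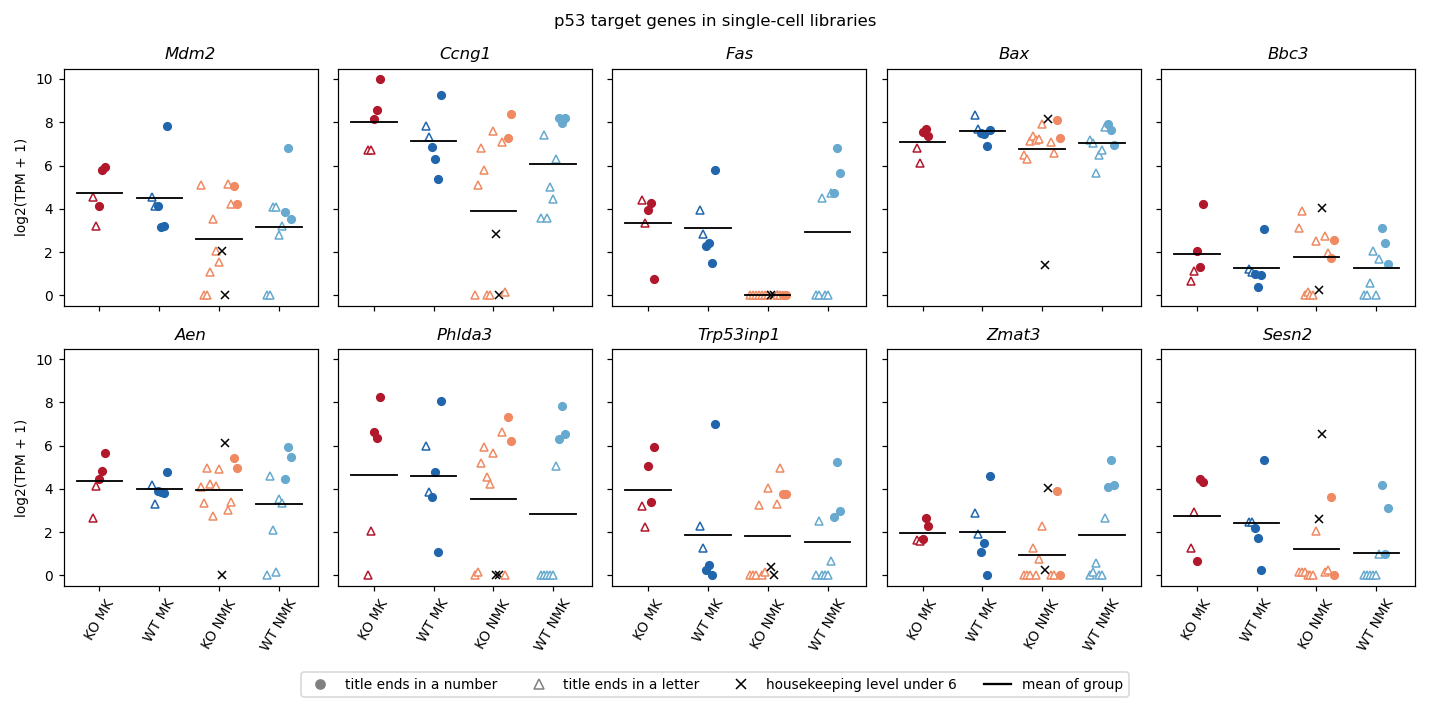
Each panel shows 1 of the 10 p53 target genes as log2(TPM + 1) on the vertical axis, with a symbol for every library of the 4 groups along the horizontal axis and a line at the group mean. Filled circles are libraries whose titles end in a number, open triangles those whose titles end in a letter, and crosses the 2 libraries with a housekeeping level under 6. Fas lies at 0 in all 13 KO NMK libraries, Bax lies between 48.8 and 320.2 TPM in the 31 sound libraries, and in WT NMK Phlda3 is at 0 in 5 cells and at 32.3 TPM or more in the other 4.

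The mean log2(TPM + 1) over the 10 genes, called the p53 target level, was 4.27 ± 0.99 in KO MK (SD, n = 5), 3.85 ± 1.39 in WT MK (SD, n = 6), 2.65 ± 1.04 in KO NMK (SD, n = 13) and 3.11 ± 1.69 in WT NMK cells (SD, n = 9). The order of the groups was KO MK, WT MK, WT NMK and KO NMK, and each neighbouring pair differed by less than 1 SD between cells. A gene was counted as higher or lower where its group means differed by 1 or more on the log2(TPM + 1) scale, and shares over all genes refer to those that averaged at least 1 TPM in either of the 2 groups compared.

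In KO cells, the comparison of MK with NMK cells asks how the genes stood in cells selected as MK, 2 of which had a low MK marker level. All 10 had a higher mean log2(TPM + 1) in the KO MK cells, 7 of them by 1 or more and none lower by 1 or more, against 34.2% of all genes higher and 3.84% lower by that size. The 7 were Ccng1 (374.6 against 77.9 TPM, log2 difference 4.10, SD 3.08), Fas (12.5 TPM against listed at 0), Trp53inp1 (22.7 against 6.79 TPM, 2.15, SD 1.89), Mdm2 (32.2 against 11.98 TPM, 2.09, SD 1.85), Sesn2 (1.53, SD 1.94), Phlda3 (1.14, SD 3.11) and Zmat3 (1.0, SD 1.32). Fas alone had every KO MK cell above every KO NMK cell, which 0.299% of all genes did. Bax, Aen and Bbc3, 3 of the 4 genes of the death machinery, differed by 0.32 (SD 1.53), 0.39 (SD 1.45) and 0.12 (SD 1.5). The p53 target level, a mean over the 10 genes, differed by 1.62 (SD 1.03). The median difference was 1.33 over the 10 genes and 0.59 over all genes. Without the 2 failed KO NMK libraries the level difference was 1.49 (SD 0.99), and the medians were 1.51 over the 10 genes and 0.36 over all genes. Of the 10 genes 6 were then higher by 1 or more and none lower, against 26% and 6.97% of all genes, Phlda3 having dropped to 0.50. Bax then turned to -0.04 (SD 0.58), which left 9 of 10 genes higher. Without KO MK B1-4 and KO MK 2, the 2 cells of low MK marker level, the level difference was 1.17 (SD 1.03). These 2 cells had p53 target levels of 5.47 and 4.43, against 3.35, 4.93 and 3.19 in KO MK 1B, B1-3 and 1A. Phlda3 rested on single cells, at 0.24 without KO MK B1-4 and 2.31 without KO MK 1A, and Zmat3 was 0.84 without KO MK B1-3.

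In WT cells the same comparison gave 10 of 10 genes with a higher mean log2(TPM + 1) in MK than in NMK cells, of which Phlda3 (63.8 against 47.6 TPM, log2 difference 1.72, SD 3.08), Sesn2 (9.0 against 2.97 TPM, 1.37, SD 1.6), Mdm2 (49.6 against 20.2 TPM, 1.35, SD 1.97) and Ccng1 (204.2 against 128.7 TPM, 1.08, SD 1.75) were higher by 1 or more. These 4 of 10 stood close to the 37.4% of all genes higher by that size, and none was lower, against 5.22% of all genes. No difference exceeded the SD between cells, and none of the 10 genes had all WT MK cells above all WT NMK cells, against 4.58% of all genes. The p53 target level, a mean over the 10 genes, differed by 0.74 (SD 1.58). The median difference was 0.62 over the 10 genes and 0.70 over all genes. WT MK B1-1 carried much of it: without that cell the level difference was 0.24, those of Mdm2, Ccng1 and Sesn2 were 0.69, 0.66 and 0.79, and that of Phlda3 was 1.02. With the 5 alike WT MK libraries counted as 1 cell the level difference was 1.74, and in the table with the libraries set aside by the authors it was -0.30. Every WT library added in that table had a housekeeping level under 6, from 3.44 in WT NMK 4 to 5.38 in WT MK B1-1a.

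KO and WT libraries were then compared within each cell class. In MK cells, KO and WT differed little for these genes: Trp53inp1 was higher by 1 or more in KO MK cells (22.7 ± 23.7 TPM, SD, n = 5) than in WT MK cells (21.9 ± 50.8 TPM, SD, n = 6), with a log2 difference of 2.08 below its SD of 2.20, and no gene was lower by that size. Its means were alike because WT MK B1-1, at 125.5 TPM, made up most of the WT MK mean. Over all genes 12.4% were higher and 9.27% lower by 1 or more, so 1 of 10 is near the background. The other differences lay between -0.48 for Bax (SD 0.55) and 0.87 for Ccng1 (SD 1.35). The p53 target level differed by 0.43 (SD 1.23), by -0.03 without the 2 KO MK cells of low MK marker level, and by -0.57 with the 5 alike WT MK libraries counted as 1 cell. It ran from 0.12 without WT MK 4 to 0.92 without WT MK B1-1. The difference in Trp53inp1 was 1.59 without KO MK B1-4 and 3.10 without WT MK B1-1.

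In NMK cells Fas and Ccng1 were lower by 1 or more in KO than in WT cells and no gene was higher by that size, against 13.3% lower and 12.8% higher over all genes. Fas was listed at 0 in KO NMK and averaged 25.7 TPM in WT NMK cells, the one difference among the 10 larger than its SD on the log2(TPM + 1) scale. Ccng1 averaged 77.9 ± 102.0 TPM in the 13 KO NMK cells (SD) and 128.7 ± 123.6 TPM in the 9 WT NMK cells (SD), with a log2 difference of -2.16 (SD 2.96) that was -1.70 without the 2 failed libraries. Without these 2, Zmat3 was also lower, by -1.14 (SD 1.74), and Phlda3 higher, by 1.30 (SD 3.10), so that 3 of 10 were lower and 1 higher by 1 or more, against 7.62% and 24.1% of all genes. The p53 target level differed by -0.45 (SD 1.34), or -0.32 without the failed libraries, and by -0.13 without WT NMK 2. Being listed at 0 in all 13 KO NMK cells while at 1 TPM or more in at least 5 of the 9 WT NMK cells, a pattern written down after the Fas values were seen, was shared by 4 of 12835 genes (0.0312%): Fas, Rprm, Btc and Ndn. Rprm encodes Reprimo, a mediator of the cell cycle arrest downstream of p53.

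**Figure D2:**
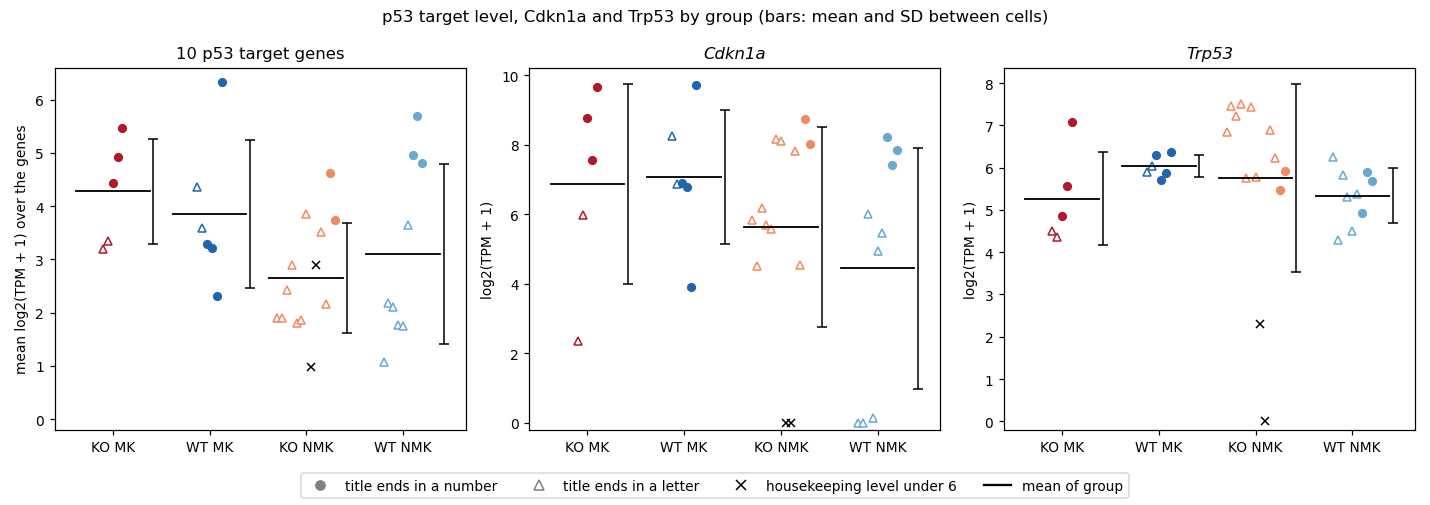
The left panel gives the mean log2(TPM + 1) over the 10 p53 target genes, the other panels log2(TPM + 1) of Cdkn1a and of Trp53, for each library by group, with symbols by title form. Horizontal lines are group means and vertical bars 1 SD between cells to either side. KO MK cells average 4.27 and KO NMK cells 2.65 for the 10 genes, and all groups overlap.

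The form of the library title went with the p53 target level inside 3 of the 4 groups. Titles end either in a number, such as B1-4 or 2, or in a number with a letter, such as 1A, and the labels do not say what the letter means. The split was noticed in these data. In WT NMK the level was 5.15 in the 3 cells with a number and 2.09 in the 6 with a letter (difference 3.06, SD 0.77), and 9 of the 10 genes were higher by 1 or more in the cells with a number, against 25.2% of all genes. Cells WT NMK 1, 2 and 3 had 25.5, 110.3 and 48.8 TPM of Fas, 78.5, 225.9 and 91.8 TPM of Phlda3, and 5.4, 37.1 and 6.8 TPM of Trp53inp1. In the 6 WT NMK cells with a letter the highest readings were 25.2 TPM of Fas, 32.3 TPM of Phlda3 and 4.8 TPM of Trp53inp1, so the title forms did not overlap for these 3 genes, nor for Ccng1 and Zmat3. The share of all genes without such overlap was not computed, so how unusual this is cannot be said.

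Among sound KO NMK cells the level was 4.18 in the 2 with a number and 2.48 in the 9 with a letter, with 7 of 10 genes higher by 1 or more in those with a number, against 23.6% of all genes. Among KO MK cells it was 4.94 in 3 with a number and 3.27 in 2 with a letter, with 8 of 10 genes higher against 20.1%, and both cells of low MK marker level have number titles. WT MK cells showed no such split, at 3.78 in 4 with a number and 3.98 in 2 with a letter, with 0 of 10 genes higher against 3.25%. The shares of the title forms differ between groups, so the level differences depended on them. Among number titles alone KO MK minus KO NMK was 0.77, WT MK minus WT NMK -1.37, KO MK minus WT MK 1.16 and KO NMK minus WT NMK -0.97. Among letter titles alone, with the 2 failed libraries left out, these were 0.79, 1.89, -0.71 and 0.39. Only the difference between KO MK and KO NMK kept its sign in both sets. Fas was at 1 TPM or more in 0 of 2 KO NMK and 3 of 3 WT NMK cells with a number, and in 0 of 11 KO NMK and 2 of 6 WT NMK cells with a letter. The mean log2(TPM + 1) of 12 stem cell markers was also higher with a number, at 3.44 against 2.55 in WT NMK and 3.95 against 3.16 in sound KO NMK cells. That of 14 housekeeping genes was 9.67 against 9.46 in WT NMK cells and 10.3 against 10.1 in sound KO NMK cells. Other marker levels differed between the title forms too, but not always in the same direction. Granulocyte and monocyte markers had a level of 2.32 with a number against 1.41 with a letter in WT NMK cells, and 1.11 against 1.17 in WT MK cells. Lymphoid markers were at 0.68 against 0.16 in WT NMK cells, where 1 of 8 averaged 1 TPM or more. They were at 0.01 against 0.10 in sound KO NMK cells. Erythroid markers were at 2.90 against 0.99 in sound KO NMK cells, but at 1.34 against 2.96 in KO MK cells. In KO MK cells the mitosis genes were at 6.59 against 4.11, and the MK markers at 3.89 against 8.81. The part of these values in the split was not tested.

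**Figure D3:**
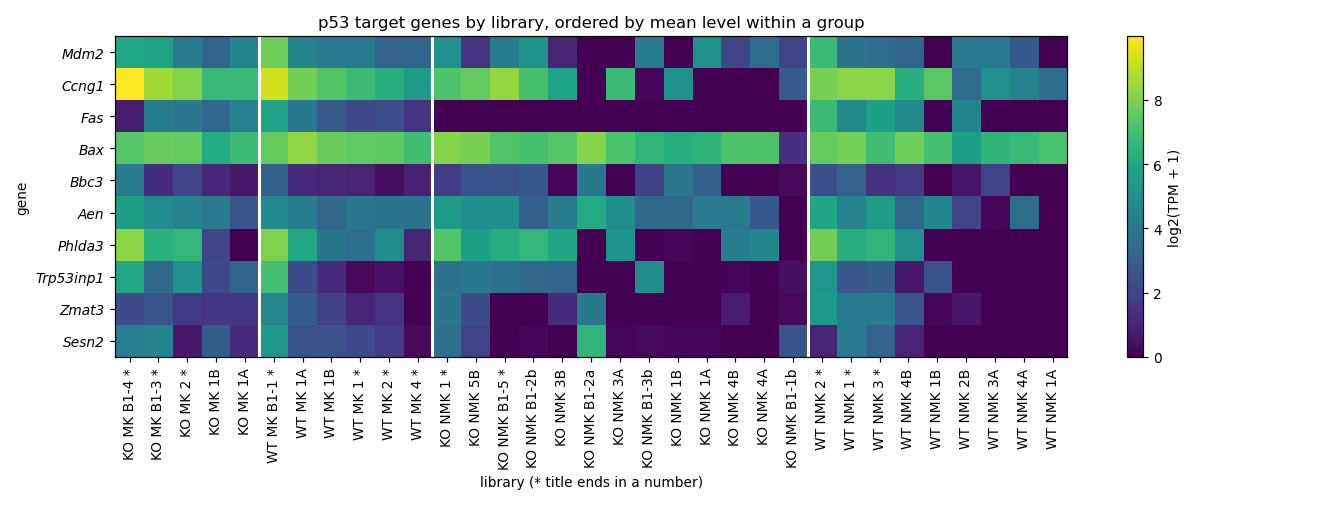
Rows are the 10 p53 target genes and columns the 33 libraries, ordered within each group by the mean level of the genes, with colour giving log2(TPM + 1) and an asterisk marking titles that end in a number. The 3 WT NMK libraries with an asterisk lead their group, and the Fas row is dark in all 13 KO NMK libraries.

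The 10 genes differed in how much they varied from cell to cell within a group. Over the 31 sound libraries the SD of log2(TPM + 1) around group means was 0.60 for Bax, the lowest, and 3.04 for Phlda3 and 2.53 for Ccng1, the highest. Bax was at 1 TPM or more in 31 of 31 cells and Aen in 29, but Fas and Sesn2 in 15 each. As deviations from their group means, all 45 pairs of the genes had a positive Spearman rho, between 0.14 and 0.75 with a median of 0.48. The highest were Sesn2 with Zmat3 (0.75), Phlda3 with Zmat3 (0.74) and Ccng1 with Phlda3 (0.72), and Mdm2 with Bax was the lowest (0.14). These points share the title forms above and the detection of genes: the p53 target level itself had a rho of 0.45 with the number of genes above 0. Its rho was 0.88 with the mean of 26 further p53 targets, 0.68 with Mdm4, 0.54 with granulocyte and monocyte markers, 0.52 with stem cell markers and 0.45 with lymphoid markers. It was 0.12 with Trp53, the gene of p53 itself, and 0.12 with the mean of 12 mitosis genes.

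**Figure D4:**
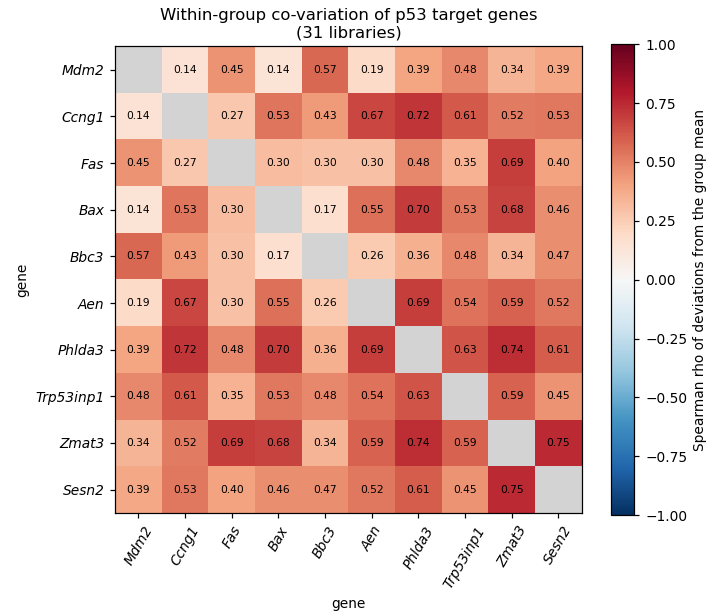
Each cell of the grid gives Spearman's rho between 2 of the 10 p53 target genes over 31 sound libraries, computed on deviations of log2(TPM + 1) from group means, with colour from -1 to 1. All 45 pairs are above 0, from 0.14 to 0.75, and Mdm2 and Bbc3 have the paler rows.

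A search for like genes covered 5141 others that averaged 10 TPM or more in a group and reached 1 TPM in at least 50% of sound cells. Mitochondrial and ribosomal protein genes, predicted genes, microRNA genes and pseudogenes had been left out. The genes whose within-group deviations were most like the p53 target level over the 31 libraries were Cdkn1a (rho 0.78), Ptp4a3 (0.76), Serpine2 (0.75), Glipr1 (0.74) and Cox6b2 (0.73). Cdkn1a encodes p21, the cyclin-dependent kinase inhibitor that carries the p53 arrest of the cell cycle, and it was not among the 10. In KO MK cells it had 62.4, 186.7, 806.3, 433.6 and 4.1 TPM, and its medians were 117.6 TPM in WT MK, 56.1 TPM in KO NMK and 43.3 TPM in WT NMK cells. In the 19 sound libraries with letter titles the rho of the 5 genes was 0.39, 0.29, 0.56, 0.35 and 0.15, each lower than over all 31.

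The list of 26 further p53 targets was chosen with earlier results of these data known. KO MK against KO NMK cells had 11 of 24 measured targets higher by 1 or more and 1 lower, with a median difference of 0.85, beside 34.2% higher, 3.84% lower and a median of 0.59 over all genes. Without the 2 failed libraries 9 of 24 were higher, which is 37.5%, and 1 lower, with a median of 0.72, beside 26%, 6.97% and 0.36 over all genes. Plk2, a polo-like kinase, averaged 28.9 against 4.95 TPM there (log2 difference 4.04, SD 1.55), and Tnfrsf10b, the TRAIL death receptor, 12.7 against 0.80 TPM (2.76, SD 1.23). Gadd45a, a growth arrest gene, ran the other way, at 1.34 against 88.5 TPM (-2.76, SD 3.29). In WT MK against WT NMK cells 10 of 26 were higher, near the 37.4% of all genes, and 3 lower, against 5.22%, with a median of 0.81 beside 0.70 over all genes. Btg2, an antiproliferative gene, had 35.7 to 381.0 TPM in WT MK and 0 to 31.7 TPM in WT NMK cells (4.25, SD 1.9). All its WT MK cells lay above all WT NMK cells, as they did for 4.58% of all genes. Plk2 averaged 57.5 against 19.3 TPM (2.92, SD 2.42).

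KO MK against WT MK cells had 2 of 25 of these further targets higher by 1 or more and 4 lower, against 12.4% and 9.27% of all genes, with a median of 0.06. Sesn1, a sestrin like Sesn2, had 17.3, 19.0, 148.7, 17.5 and 15.8 TPM in KO MK cells and 6.3 to 9.6 TPM in WT MK cells (1.66, SD 0.92). These groups did not overlap, but the share of all genes without such overlap was not computed. The reading of 148.7 TPM was in KO MK B1-4, a cell of low MK marker level. The 5 alike WT MK libraries may not be separate cells, which could narrow the WT MK range. Btg2 averaged 46.4 against 101.0 TPM (-2.69, SD 2.39), and Pmaip1, which encodes the BH3-only protein NOXA, 1.48 against 14.9 TPM (-1.79, SD 1.61), where WT MK B1-1 alone had 70.9 TPM. KO NMK against WT NMK cells had 3 of 25 higher and 6 lower, against 12.8% and 13.3% of all genes, with a median of -0.09, and without the failed libraries 3 higher and 5 lower, against 24.1% and 7.62%. Perp, a p53 effector of cell junctions and apoptosis, was listed at 0 in all 13 KO NMK cells and at 328.1, 376.7, 25.8 and 9.8 TPM in 4 of 9 WT NMK cells, with the other 5 at 0. The first 3 of these readings were in WT NMK 1, 2 and 3, which have number titles. Dcxr, a carbonyl reductase, averaged 26.7 TPM in KO NMK and 124.7 TPM in WT NMK cells (-2.31, SD 3.28). Its difference went with the title form: WT NMK 1, 2 and 3 had 337.3, 389.2 and 296.9 TPM. In cells with letter titles Dcxr reached at most 44.8 TPM in WT NMK and 112.1 TPM in KO NMK. Rps27l, a p53-inducible relative of the ribosomal protein gene Rps27 that could share reads with it, averaged 787.0 TPM in KO NMK and 1937.0 TPM in WT NMK cells (-2.39, SD 2.57, and -1.11, SD 0.75, without the failed libraries). In MK cells, a comparison added after the values were seen, Rps27l averaged 761.1 TPM in KO and 1575.2 TPM in WT (-1.14, SD 0.45).

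**Figure D5:**
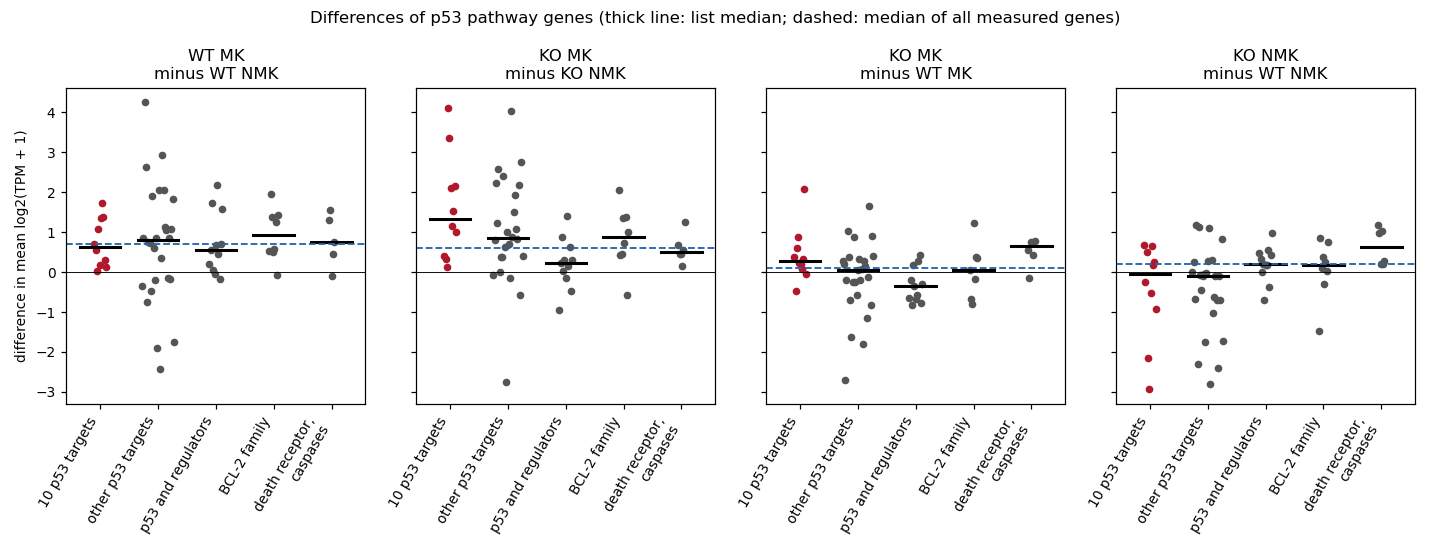
Points are genes and the vertical axis is the difference in mean log2(TPM + 1), with 1 panel for each comparison and 1 column for each gene list along the horizontal axis. Thick lines are list medians and the dashed line is the median of all measured genes, 0.70, 0.59, 0.09 and 0.20 from left to right. The 10 p53 targets have medians of 0.62, 1.33, 0.28 and -0.04 in the same order.

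Of 11 measured regulators of p53, 1 was higher by 1 or more in KO MK than KO NMK cells and 3 in WT MK than WT NMK cells, against 34.2% and 37.4% of all genes. With all libraries none passed that size in either direction between KO and WT. Of all genes, 12.4% were higher and 9.27% lower in KO MK than WT MK cells, and 12.8% and 13.3% in KO NMK than WT NMK cells. Without the 2 failed KO NMK libraries 1 was higher and 2 were lower in KO MK than KO NMK cells, against 26% and 6.97% of all genes. The lower ones were Trp53 (49.7 against 108.4 TPM, -1.32, SD 0.89) and Atm, a DNA damage kinase (-1.25, SD 1.23). In the same setting 2 of 11 (18.2%) were higher in KO NMK than WT NMK cells, below the 24.1% of all genes. Trp53 had 19.4, 46.2, 133.4, 27.9 and 21.8 TPM in KO MK cells, 51.1 to 81.2 TPM in WT MK cells, a median of 73.6 TPM in KO NMK cells (0 to 181.3) and of 40.7 TPM in WT NMK cells (18.5 to 74.8). The difference between KO NMK and WT NMK cells was 0.42 (SD 1.77), and 1.25 (SD 0.73) without the 2 failed libraries, which had 3.9 and 0 TPM. In 6 of 13 KO NMK cells Trp53 exceeded the highest WT NMK cell, and all 6 have letter titles. Trp53 averaged 51.3 TPM in the number titles and 121.1 TPM in the sound letter titles of KO NMK (-1.10, SD 0.68), and 46.0 and 41.7 TPM in those of WT NMK. Between KO MK and WT MK cells Trp53 differed by -0.77 (SD 0.76). Mdm4, the partner of MDM2 that blocks p53 activity, averaged 4.70 TPM in KO MK, 3.10 TPM in WT MK, 3.79 TPM in KO NMK and 4.02 TPM in WT NMK cells and differed by less than its SD in all 4 comparisons. Chek1, a checkpoint kinase, was higher in WT MK than WT NMK cells by 1.72 (SD 1.78).

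Genes that decide cell death alongside Fas, Bax and Bbc3 were read in the same cells. Bcl2l1, which encodes the survival protein BCL-XL on which platelets depend, had 15.4, 13.6, 1.9, 3.0 and 8.8 TPM in KO MK cells and 1.3 to 4.4 TPM in WT MK cells (log2 difference 1.23, SD 0.81). Its 3 highest KO MK readings were in the cells rich in MK markers. Mcl1, a further survival gene, averaged 91.5, 69.4, 82.6 and 42.9 TPM in KO MK, WT MK, KO NMK and WT NMK cells. Of the BCL-2 family 4 of 8 measured genes were higher by 1 or more in KO MK than KO NMK cells and 4 of 8 in WT MK than WT NMK cells, against 34.2% and 37.4% of all genes. Without the failed libraries the first count was 3 of 7, against 26% of all genes. Between KO and WT, 1 of 7 was higher in KO MK cells, against 12.4% of all genes. In KO NMK cells 1 of 8, Bad, was lower (-1.48, SD 2.08, and -0.76 without the failed libraries), against 13.3% of all genes. Without those libraries 1 of 8 was higher and none lower in KO NMK than WT NMK cells, against 24.1% and 7.62% of all genes. Casp8, the caspase that FAS activates, averaged 48.0 ± 14.9 TPM in KO MK (SD, n = 5) and 27.3 ± 3.77 TPM in WT MK cells (SD, n = 6), a log2 difference of 0.75 (SD 0.33). It was at 1 TPM or more in 11 of 13 KO NMK cells, in which Fas was listed at 0. Fasl, the ligand of FAS, was listed at 0 in all KO MK, WT MK and WT NMK cells and reached at most 0.2 TPM in KO NMK cells.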

How the data were processed

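Single-cell SMART-Seq libraries were made from cultured mouse bone marrow cells, per the labels' protocols. The authors deposited TPM values, rounded to 1 decimal, for 46 matched libraries and for 33 of them without outliers, the table used here. Per the submitters' processing notes, the tools included STAR 2.6.1e, featureCounts 1.6.2, FastQC 0.11.7 and cutadapt 1.9.1, with the mm10 build. How counts became TPM, or outliers were picked, is not given in the sources used here, and neither is the annotation or strandedness of counting. The labels cover 90 samples, 44 of them not analysed here. A further column with no matching sample (1 in all) was left unused.

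Each group counted as 1 sample, so groups were compared by their difference in mean log2(TPM + 1), where 1 is the pseudocount, set against the SD between cells pooled over both groups. Differences of low genes are understated on this scale. The limit of 6 for the housekeeping level of sound libraries, and the limit of 3 for the MK marker level, were set with the data known. The members and lists were chosen with earlier results of these data known. All 10 members were named, and of each further p53 or apoptosis list up to 3 genes per comparison with the largest difference at a mean of 10 TPM or more, with Trp53, Mdm4, Cdkn1a and Bcl2l1 always. Fasl, Casp8 in NMK cells and Rps27l in MK cells were added after their values were seen, and of the genes allowed by the rule only some are described.

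Alternatives were the full table, other pseudocounts, summaries and scalings, title prefixes, alike libraries as 1, sound libraries alone and each library left out. Splits by title form and removal of 2 KO MK cells of low marker level were chosen after seeing the data. Gene positions came from GENCODE M21 (GRCm38) and promoter windows from RefSeq. Values were computed with numpy 2.4.6, scipy 1.17.1 and pandas 2.3.3, and plots drawn with matplotlib 3.10.9, in Python 3.11.15. The computation was tested on simulated data.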

Additional observations from a re-analysis of the deposited data

Results flagged for a closer look

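WT MK B1-1 had the highest WT MK value of 9 of the 10 genes, all but Bax. In 3 of them, on the log2(TPM + 1) scale, its gap to the next cell was a larger share of the range of the group than the limit of 0.625 used for 6 values. The shares were 0.708 for Mdm2, 0.696 for Bbc3 and 0.672 for Trp53inp1, and 0.56 for Sesn2, the next highest. Its reading of Mdm2 was 226.4 TPM, where the other cells had 22.1 TPM at most. That of Bbc3 was 7.5 TPM, against at most 1.3 TPM, and that of Trp53inp1 was 125.5 TPM, against at most 3.9 TPM. For Sesn2 it had 38.8 TPM, against at most 4.6 TPM, and for Phlda3 267.2 TPM, against at most 62.6 TPM. The 3 were among 33 sets of values examined in this way, all from KO MK, WT MK and WT NMK cells. The limit is meant to pass about 1 in 20 sets by chance when the cells of a set are independent. That rate cannot be relied on here. The sets share cells, the genes vary together, and the other WT MK libraries may not be separate cells. The other 5 WT MK libraries are the ones that correlate with each other at r = 0.972 or more, and WT MK B1-1 is the one WT MK library with the title prefix B1. Whether either bears on its readings was not tested.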

How the results depend on the processing

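No paired analysis was possible because the results come from no test, and replicate names do not tie cells across groups. With each cell left out in turn, the difference in the p53 target level ranged from 1.32 to 1.89 for KO MK against KO NMK, 0.24 to 1.06 for WT MK against WT NMK, 0.12 to 0.92 for KO MK against WT MK and -0.71 to -0.13 for KO NMK against WT NMK. The KO MK against KO NMK difference kept its sign under every setting run, and was 2.76 with a pseudocount of 0.1 in place of 1. The WT MK against WT NMK difference was -1.37 among titles ending in a number. The KO MK against WT MK difference was -1.13 among titles with the prefix B1, which leaves 2 KO MK cells and 1 WT MK cell. That 1 cell is WT MK B1-1, the library flagged above. No WT NMK library has this prefix, so neither comparison with WT NMK could be computed there. The KO NMK against WT NMK difference was 0.25 from medians over cells. The causes were not tested. With a minimum mean of 10 TPM in place of 1, 2421 genes were higher and 386 lower by 1 or more in WT MK than WT NMK cells (against 4326 and 604), and 956 higher and 644 lower in KO MK than WT MK cells (against 1464 and 1094). Of single-gene values under settings other than leaving out 1 cell, 33 moved by more than the SD between cells and 547 did not. Depth is unknown, so a reading of 0 may be a transcript missed in a cell.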

Other observations

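The libraries that the authors set aside as outliers gave p53 target readings of their own. KO MK 1 had 30.6 TPM of Fas, 163.8 TPM of Ccng1, 146.5 TPM of Bax and 88.3 TPM of Phlda3, within the range of the KO MK cells that were kept for Ccng1, Bax and Phlda3 and above it for Fas. The set-aside libraries KO NMK B1-1a, B1-3a and 5A were listed at 0 for Fas, and KO NMK B1-1a had 171.3 TPM of Ccng1 and 102.8 TPM of Bax. Fas was also at 0 in the set-aside WT MK B1-1a, B1-1b and B1-2a and KO MK B1-1b and B1-1a. WT MK B1-2 had 195.3 TPM of Sesn2, above every library that was kept, with Fas and Phlda3 listed at 0 and 2676 genes above 0. Of the 13 set-aside libraries, 10 had a housekeeping level under 6.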
